A study of Mus musculus with 8 samples.

Results

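The DNA methylation of 7 genes was followed, of 21755 protein-coding genes annotated on the autosomes and X. They were Ikzf1 and Ikzf3 of the Ikaros family, the E protein genes Tcf3, Tcf4 and Tcf12, and the inhibitor genes Id2 and Id3. They were chosen by family, with earlier results of these data known. Each locus was the gene body with 10 kb to either side (GENCODE M21, GRCm38), and a CpG was used where it had 5 or more reads in every file.

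The samples came from spleens of mice aged 6 to 8 weeks of the inbred strain C57BL/6J. CD43- B cells, which are at rest, and naive CD4+CD62L+ T cells were purified from females and from males, giving 4 groups of 2 samples by sex and cell type, and the cells of several individuals were pooled for a sample. Whole-genome bisulfite sequencing was used, in which an unmethylated cytosine is read as T, so that the methylation level of a CpG is the share of its reads that were not converted. Per the labels, part of each sample was also oxidized, a step that makes 5-hydroxymethylcytosine read as unmethylated. The files were taken from their titles to be the libraries without it, in which 5-methylcytosine and 5-hydroxymethylcytosine are read alike. Both samples of a group shared 1 file, and whether the file merged them is not stated. The comparison was therefore between 2 B cell files and 2 T cell files, with sex as the other factor. All values below are levels in percent, or differences between levels in percentage points (B minus T), and females come before males: a pair of values for B or T gives the female file first, and a run of 4 values gives B then T in females, followed by B then T in males.

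Ikaros (Ikzf1) and Aiolos (Ikzf3) are zinc finger proteins that bind DNA and recruit chromatin remodelling and deacetylase complexes during lymphocyte development. E proteins are basic helix-loop-helix factors that bind E-box sequences as dimers and are needed for both the B and the T lineage. Id proteins have the helix-loop-helix but lack the basic region, so a dimer of an Id and an E protein does not bind DNA. Active promoters and enhancers are usually low in CpG methylation, while gene bodies are usually highly methylated.

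The autosomes of the files held 278275973, 339923001, 309917919 and 333249103 CpG reads, a mean depth of 14.6, 17.7, 16.1 and 17.3 reads per CpG. Within the Ikzf1 locus the mean depth was 13.2, 17.97, 15.2 and 16.8 reads, so the B cell values rest on fewer reads than the T cell values. Cell identity was checked at the annotated starts of marker genes, called by the criteria given below. All 6 B cell markers tested were called lower in B, and 6 of 8 T cell markers were called higher in B. Bcl11b and Cd28 were not called. Bcl11b was higher in B by only 3.45 points, at 3.23% and 4.04% against 0.195% and 0.168% in T, and Cd28 differed by -3.29 points. Neither the 5 myeloid, the 2 NK nor the 3 erythroid markers were called, although the myeloid marker Lyz2 came close, at 41.5% and 50.7% in B against 64.1% and 66.7% in T (-19.3 points, adjusted p = 0.0436). Both CD8 markers were higher in B: Cd8b1 stood at 89.98% and 89.7% in the B files and at 40.6% and 38.5% in the T files, although CD8+ cells were depleted from the T cell samples.

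Cell type differences were found in 6 of the 7 loci, beside 53.9% of all loci compared, and most of them lay in Ikzf1 and Ikzf3. Reads were summed over 1 kb windows with at least 3 CpGs and compared in a quasi-binomial model. A window was called where the adjusted p was under 0.05 and the mean difference was 20 points or more. Over the genome 2.08% of windows were called, with 1.16% higher in B and 0.913% lower in B. In the 7 loci 113 of 875 windows (12.9%) were called, 61 higher in B and 52 lower in B. Near genes in general the share was also above that of the genome, at 2.78% of windows within 10 kb of a protein-coding gene.

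**Figure D1:**
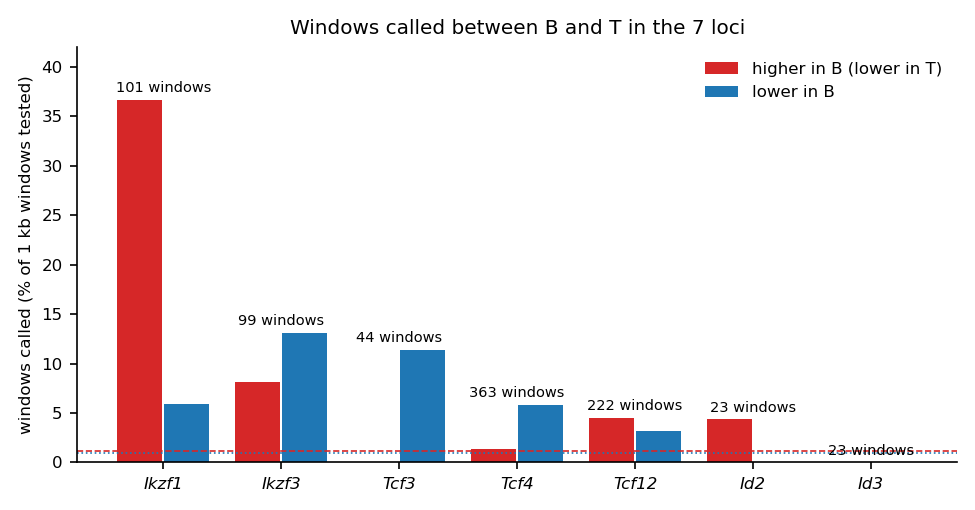
Share of tested 1 kb windows called between B and T cells in each locus (percent), split by direction, with the number of windows tested above each pair of bars. The dashed red line marks the 1.16% of all windows called higher in B and the dotted blue line the 0.913% called lower in B. Ikzf1 stood out for windows higher in B, while the called windows of Tcf3 were all lower in B and Id3 had none.

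The loci differed in how much of them was called. Ikzf1 had 43 of 101 windows called (42.6%), and only 20 of the 18700 protein-coding loci with 20 or more windows had a higher share. Ikzf3 had 21 of 99 (21.2%), and 196 loci had a higher share. Tcf3 had 5 of 44 (11.4%), Tcf12 17 of 222 (7.66%) and Tcf4 26 of 363 (7.16%). Id2 had 1 of 23 and Id3 0 of 23. In the limma fit 31 windows were called in Ikzf1, 9 in Ikzf3, 2 in Tcf3, 9 in Tcf12, 17 in Tcf4 and 0 in either Id gene, beside 1.02% of all windows. Tcf12 also had 9 where CpGs needed 10 reads and 10 with the dispersion prior taken from all windows. In the quasi-binomial model the median over those loci was 1.28% and the 90th percentile 8.49%. The shares of Ikzf1, Ikzf3 and Tcf3 lay above both, and those of Tcf12, Tcf4 and Id2 lay between them.

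The direction of the differences varied between the loci. Ikzf1 had 37 windows higher in B and 6 lower in B. Ikzf3 had 8 and 13, Tcf12 had 10 and 7, Tcf4 had 5 and 21, and Tcf3 had 0 and 5. Pooled over the whole locus, Ikzf1 stood at 60.0% and 60.1% in the B files against 46.7% and 45.8% in the T files. Tcf3 ran the other way, with 60.1% and 59.1% in B against 66.3% and 65.2% in T. The pooled levels of the other loci differed by under 3 points in either sex.

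At the annotated starts themselves the cell types were much alike. Within 1 kb of the start, 0 of the 7 genes was called in the quasi-binomial model, with 2 at an unadjusted p under 0.05 and 0 under limma, beside 0.915% of all gene starts called. The Tcf3 start stood at 3.28%, 3.13%, 2.38% and 2.50%, and the Tcf12 start at 3.401%, 3.52%, 2.96% and 2.60%. The Ikzf3 start was between 1.23% and 2.92% in the files, the Id2 start between 4.67% and 5.78%, and the Id3 start between 3.41% and 6.33%. The first annotated start of Tcf4 was intermediate in every file, between 37.0% and 40.8%. These levels rest on 552 to 2921 reads a file, and the widest Wilson 95% interval reached 4.09 points to either side, counting error only. The level within 1 kb of the Tcf4 start covers unlike parts. From 250 bases before that start to 50 after it, 2 CpGs stood at 90.5%, 100%, 95.5% and 100%, on 21 to 28 reads a file.

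Ikzf1 was the exception among the starts. It stood at 10.9% and 9.84% in the B files and at 6.75% and 5.52% in the T files, a difference of 4.22 points (adjusted p = 0.0282, quasi-binomial model with limma's dispersion prior) that was below the 20 points needed for a call. In a limma fit of log2 ratios the adjusted p was 0.247. With a file left out the difference was between 3.61 and 4.84 points and was not called. Where CpGs needed 10 reads it was 6.23 points (adjusted p = 1.21e-05, quasi-binomial model). Within 500 bp of the start it was 11.3 points (adjusted p = 0.000387, same model). Both were also below 20 points. The difference sat close to the start. From 250 bases before it to 50 after it, Ikzf1 stood at 22.4% (134 reads) and 26.9% (156 reads) in the B files and at 1.34% (224 reads) and 1.90% (211 reads) in the T files. On that shorter interval it was called, with 23.0 points and an adjusted p of 0.00223.

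The low-methylation stretch around a start was also measured for its length, as the run of CpGs in which every 5 consecutive CpGs were at 30% or less when pooled. This measure was chosen after the values were seen and has no test. At the second Ikzf1 start, 1.21 kb into the gene, the stretch ran for 7.56 kb and 8.15 kb in the B files and for 16.2 kb in both T files. In T cells it went on to 15.8 kb past the annotated start. At that annotated start the stretch was 0.287 kb and 0.145 kb in the B files, and did not join the longer stretch. There it ended 0.118 kb and 0.056 kb past the annotated start. The longer stretch of the B files began 1.065 kb and 1.023 kb before the second start, so the break was short. At the Tcf3 start it was the B files that had the longer stretch, 5.06 kb and 5.10 kb against 2.91 kb in both T files. With a limit of 20% the Tcf3 values were 3.31 kb and 5.04 kb in B against 2.79 kb and 2.91 kb in T, so that the female pair then differed by less than the B files did from each other.

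At the first annotated start of the other genes that had one, the stretch was of like length in all files. It was 7.22, 7.46, 7.21 and 7.48 kb at Id2, between 2.35 and 2.76 kb at Id3 and between 2.13 and 2.29 kb at Tcf12. At Ikzf3 it was 2.29 kb in the female B file and 2.96 to 2.97 kb in the other files. The first annotated start of Tcf4 lay in no such stretch.

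**Figure D2:**
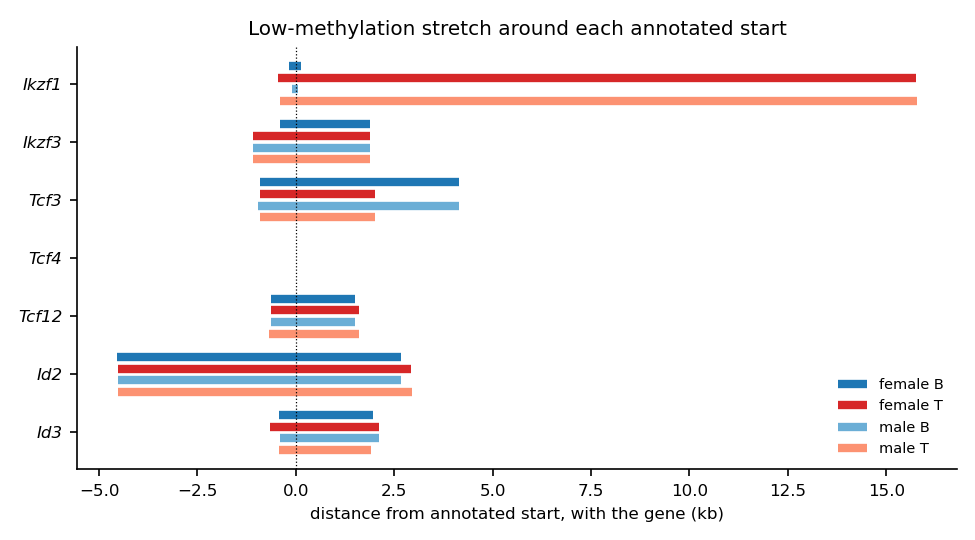
Extent of the low-methylation stretch around the annotated start of each gene (kb, positive with the direction of transcription), one bar per file. At the annotated Ikzf1 start the stretch reached 15.8 kb into the gene in both T files and under 0.2 kb in both B files. After a short break the B files had a further stretch of 7.56 kb and 8.15 kb, which is not drawn. The stretch of Tcf3 reached 4.15 kb and 4.14 kb in the B files and 2.00 kb in the T files.

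Ikzf1 (ENSMUSG00000018654, chr11:11685003-11772926, plus strand, 87.9 kb) is the founding gene of its family and encodes several isoforms of Ikaros. The first windows of the gene were low in both cell types, and a long span after them was lower in T cells than in B cells. From 8.00 to 58.0 kb past the start, a span bounded by called windows and so chosen on these values, 36 of 46 windows were called, all 36 higher in B. The span stood at 75.3% and 74.8% in the B files (4448 and 5116 reads) and at 36.9% and 36.5% in the T files (6051 and 5822 reads). In the gene beyond this span the levels were 84.5% and 83.7% in B against 81.4% and 79.8% in T, and 2 of 26 windows were called. Of the 66 Ikzf1 windows in introns 33 were called, all 33 higher in B.

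Runs of adjacent called windows were joined into elements, and Ikzf1 had 10 that were higher in B. The 5 kb element at chr11:11699001-11704000, in introns 1 and 2 and over exon 2 of transcript Ikzf1-203, stood at 85.4% and 82.5% in the B files and at 24.1% and 21.3% in the T files. Its first window was at 84.7% and 78.1% in B and at 6.53% and 6.83% in T. In intron 3 the 6 kb element at chr11:11717001-11723000 stood at 85.9% and 86.4% in B against 35.5% and 33.3% in T. The neighbouring 5 kb element at chr11:11725001-11730000 stood at 75% and 73.1% in B against 22.0% and 24.3% in T. The longest element, 7 kb at chr11:11736001-11743000, reached over exon 4 and stood at 78.9% and 78.4% in B against 34.4% and 30.9% in T, with 1 window over that exon at 85.3% and 83.0% in B and at 7.04% and 6.25% in T.

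The 4 Ikzf1 elements that were lower in B lay outside this span, as did 1 that was higher in B. The 3 kb element at chr11:11775001-11778000, downstream of the gene, stood at 38.7% and 40.6% in the B files and at 86.5% and 84.3% in the T files. Further downstream, chr11:11781001-11782000 was at 54.4% and 51.6% in B against 92.5% and 88.7% in T. The window over the last exon (chr11:11768001-11769000) and the upstream window (chr11:11676001-11677000) differed by 21.4 and 22.3 points. The first was not called without the male B file, at -18.5 points. The second was not called without the female B file, at -17.95 points, nor in the limma fit, nor when CpGs needed 10 reads, at -6.83 points. Neither was called with the dispersion prior taken from all windows.

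The sequences below show stretches of 160 bases in which the CpGs, in capitals, were mostly methylated in one cell type and at a low level in the other. They are given from the plus strand of GRCm38, and they overlap no annotated exon. The first is in intron 3 and read 89.1% and 78.4% in the B files (46 and 37 reads) and 0% in both T files (60 and 74 reads). The second, also in intron 3, read 87.8% and 79.8% in B against 2.42% and 2.97% in T. The third is downstream of the gene and read 0% in both B files (65 and 59 reads) against 90.2% and 88.7% in T. It holds 1 CAGCTG and 1 CATCTG E-box, and the first holds 1 CACCTG E-box.
Ikzf1 intron 3, chr11:11719845-11720004, low in T: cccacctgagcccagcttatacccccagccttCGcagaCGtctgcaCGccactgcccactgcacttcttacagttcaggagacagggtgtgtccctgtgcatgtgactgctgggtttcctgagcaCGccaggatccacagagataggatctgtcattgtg
Ikzf1 intron 3, chr11:11725288-11725447, low in T: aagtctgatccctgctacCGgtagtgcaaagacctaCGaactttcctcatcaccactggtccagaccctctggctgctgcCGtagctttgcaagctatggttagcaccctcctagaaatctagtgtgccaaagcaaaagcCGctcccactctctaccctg
Ikzf1 downstream, chr11:11776839-11776998, low in B: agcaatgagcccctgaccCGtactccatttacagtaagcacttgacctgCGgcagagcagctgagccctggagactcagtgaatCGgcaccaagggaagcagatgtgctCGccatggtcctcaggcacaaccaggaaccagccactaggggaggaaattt

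Ikzf1 had 11 windows away from its starts that were at 30% or less in all 4 files, and 2 of them were among the windows called higher in B. The window at chr11:11691001-11692000 in intron 1 stood at 0.866%, 0%, 2.53% and 0%. Its neighbour at chr11:11690001-11691000 stood at 0%, 0.493%, 1.37% and 0%. Both belong to the part of the low stretch that B and T cells shared.

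Ikzf3 (ENSMUSG00000018168, chr11:98464902-98546031, minus strand, 81.1 kb) encodes Aiolos, which can pair with Ikaros. Its called windows were scattered and went both ways, with 7 elements higher in B and 8 lower in B. The window at chr11:98470001-98471000 in intron 7 of transcript Ikzf3-201 stood at 62.6% and 63.4% in the B files against 9.49% and 7.53% in the T files. The window at chr11:98527001-98528000 in intron 1 stood at 80.5% and 74.7% in B against 32.0% and 30.9% in T. In intron 3 the window at chr11:98513001-98514000 was at 49.0% and 45.1% in B against 10.2% and 8.06% in T.

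Close to the last of these, a window of the same intron went the opposite way. At chr11:98515001-98516000, 1 kb further on, the B files stood at 36.3% and 33.6% and the T files at 89.0% and 89.9%. The window at chr11:98484001-98485000 in intron 6 stood at 52.2% and 49.8% in B against 94.5% and 92.7% in T. Intron 1 held 2 elements of 3 kb that were lower in B, and these lay nearer to the start than the one that was higher in B. The first, 3.53 kb from the start at chr11:98541001-98544000, was at 39.1% and 34.8% in B against 70.98% and 74.9% in T, and its leading window lost the call in the limma fit. The second, 11.5 kb from the start at chr11:98533001-98536000, was at 41.8% and 47.3% in B against 80.8% and 82.3% in T.

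A 2 kb element over exon 5, at chr11:98487001-98489000, stood at 79.4% and 80.2% in B against 51.8% and 52.4% in T. The window at chr11:98464001-98465000, which lies mostly downstream of the gene and reaches into the last exon, was also called. It stood at 71.4% and 66.4% in B against 33.2% and 33.0% in T, and it was not called in the limma fit. Downstream of it, chr11:98460001-98461000 went the other way, with 30.2% and 34.9% in B against 72.9% and 74.5% in T. The Ikzf3 flanks overlap the neighbouring genes Grb7 and Zpbp2, and 1 called window of the locus overlapped Zpbp2. The 2 CpG-rich windows at chr11:98457001-98459000 downstream of Ikzf3 were at 0.275% to 4.77% in every file.

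In intron 1 of Ikzf3, stretches of opposite direction can be set side by side. The first stretch read 87.1% and 87.0% in the B files (31 and 54 reads) and 0% in both T files (55 and 67 reads). The second read 2.75% and 3.41% in B (109 and 88 reads) against 64.4% and 67.3% in T (87 and 113 reads). Capitals mark the CpGs, the plus strand of GRCm38 is shown, and neither holds any of the E-box, RUNX or Ikaros motifs counted here.
Ikzf3 intron 1, chr11:98527328-98527487, low in T: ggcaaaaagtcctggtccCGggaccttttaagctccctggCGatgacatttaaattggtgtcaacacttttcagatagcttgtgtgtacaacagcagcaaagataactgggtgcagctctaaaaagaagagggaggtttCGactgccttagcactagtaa
Ikzf3 intron 1, chr11:98533759-98533918, low in B: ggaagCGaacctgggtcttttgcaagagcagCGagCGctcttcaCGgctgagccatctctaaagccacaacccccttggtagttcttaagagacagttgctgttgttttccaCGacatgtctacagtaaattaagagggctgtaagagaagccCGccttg

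**Figure D3:**
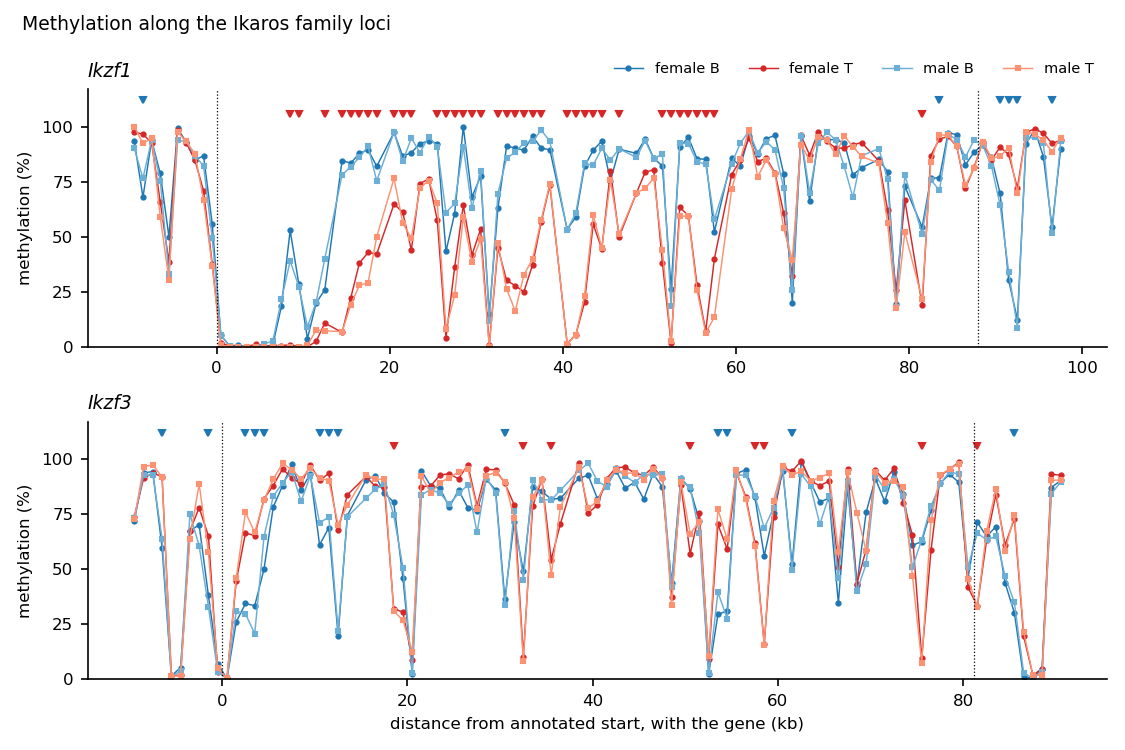
Methylation level (percent) of each tested 1 kb window along the Ikzf1 and Ikzf3 loci in the 4 files, by distance from the annotated start (kb, with transcription); dotted lines mark the gene's ends. Red triangles mark windows called higher in B and blue triangles windows called lower in B. In Ikzf1 36 windows from 8.00 to 58.0 kb, a span chosen on these values, were called higher in B, while in Ikzf3 the called windows of both directions are spread over the locus.

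Tcf3 (ENSMUSG00000020167, chr10:80409514-80433647, minus strand, 24.1 kb) encodes E12 and E47, the E proteins that B cell development depends on. Its differences were few and 3 of the 5 lay together around an inner start. The 3 kb element at chr10:80429001-80432000 lay 3.15 kb into the gene, in introns 1 and 2 and over exon 2 of transcript Tcf3-206. It stood at 17.1% and 19.7% in the B files and at 87.1% and 87.2% in the T files. Its middle window was at 2.56% and 4.76% in B against 86.3% and 87.5% in T.

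That element holds the start of shorter Tcf3 transcripts at position 80431082, 2.56 kb inside the first start. Within 1 kb of this start, the B files stood at 8.21% and 7.27% and the T files at 65.1% and 69.7%, and the difference of 59.6 points was called (adjusted p = 3.37e-06). The first Tcf3 start was unmethylated in both cell types, and the innermost start, at position 80421860, was methylated in both, between 93.3% and 97.2%. The cell types thus differed at 1 of the 3 Tcf3 starts. The other called windows were also lower in B. Upstream, chr10:80443001-80444000 stood at 22.0% and 16.0% in B against 52.2% and 50.7% in T. In intron 3, chr10:80423001-80424000 stood at 62.0% and 66.2% in B against 84.2% and 88.2% in T. Both of these lost the call in the limma fit.

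The first Tcf3 promoter and a stretch of the element around the inner start are shown to set a CpG-rich sequence that was unmethylated in both cell types beside one that was not. The promoter sequence is RefSeq's (GRCm38.p6), on the minus strand, ending at the base before the first annotated exon. It holds 17 CpGs, and the 15 measured stood at 0%, 0%, 0% and 0.418%. The stretch of the element, from the plus strand, holds 5 CpGs and read 0.952% and 0% in the B files (105 and 97 reads) against 99.2% and 96.2% in the T files (133 and 130 reads). Capitals mark the CpGs.
Tcf3 promoter, chr10:80433648-80433885, unmethylated in both: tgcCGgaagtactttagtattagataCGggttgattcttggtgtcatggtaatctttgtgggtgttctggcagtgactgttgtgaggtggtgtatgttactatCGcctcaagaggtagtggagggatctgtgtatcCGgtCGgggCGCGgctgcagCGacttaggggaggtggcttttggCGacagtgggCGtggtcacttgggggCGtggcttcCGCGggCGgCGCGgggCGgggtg
Tcf3 intronic element, chr10:80429878-80430037, low in B: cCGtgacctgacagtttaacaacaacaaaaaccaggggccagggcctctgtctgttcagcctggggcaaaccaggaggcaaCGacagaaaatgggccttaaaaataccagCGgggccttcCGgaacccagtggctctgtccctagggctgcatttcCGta

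Tcf12 (ENSMUSG00000032228, chr9:71842688-72111871, minus strand, 269.2 kb) encodes HEB, the E protein that acts with E47 in early T cells. Most of the gene was highly methylated in all files, and the differences were narrow. Of its 17 called windows 16 were in introns, and 9 elements were higher and 5 lower in B. The window at chr9:71905001-71906000 in intron 8 of transcript Tcf12-202 stood at 89.6% and 95% in the B files against 14.5% and 17.4% in the T files. In intron 13, chr9:71874001-71875000 stood at 96.5% and 94.2% in B against 33.9% and 36.6% in T. In intron 3, chr9:72106001-72107000 stood at 96.7% and 100% in B against 48.3% and 56.2% in T.

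Other Tcf12 windows were low in B cells. At chr9:72087001-72088000 in intron 3 the B files stood at 29.1% and 31.9% and the T files at 94.6% and 98.6%. The element at chr9:71951001-71954000 in intron 5 stood at 41.0% and 42.7% in B against 79.6% and 84.5% in T, and its last window at 10.7% and 30.6% against 90.3% and 94.7%. In the same intron, chr9:71994001-71995000 stood at 6.06% and 10.3% in B against 54.2% and 40% in T, a window that lost its call with the dispersion prior taken from all windows, and chr9:71976001-71977000 at 12.6% and 12.3% in B against 35.4% and 40.3% in T. The latter differed by -14.8 points, and was not called, when CpGs needed 10 reads, and it was not called in the limma fit. Intron 4 held a window of each direction 3 kb apart. At chr9:72004001-72005000 the levels were 41.9% and 23.4% in B against 86.8% and 81.4% in T, and at chr9:72000001-72001000, which reaches over exon 5, they were 94.2% and 95% in B against 61.6% and 65.1% in T. Coverage was thin in places, and the called Tcf12 windows had as few as 24 reads in a file. The window at chr9:72029001-72030000, with 3 CpGs and levels of 78.4% and 84.2% in B against 48.6% and 54.8% in T, was the one that lost its call whichever file was left out, and it lost it in the limma fit and with the dispersion prior taken from all windows.

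Stretches from intronic elements of Tcf12 are shown, one of each direction, with CpGs in capitals and from the plus strand of GRCm38. The first holds 6 CpGs and read 89.1% and 95.7% in the B files (101 and 92 reads) against 1.90% and 0.847% in the T files (105 and 118 reads). The second holds 3 CpGs and read 0% in both B files (38 and 56 reads) against 70.4% and 71.2% in the T files (71 and 73 reads).
Tcf12 intron 8, chr9:71905423-71905582, low in T: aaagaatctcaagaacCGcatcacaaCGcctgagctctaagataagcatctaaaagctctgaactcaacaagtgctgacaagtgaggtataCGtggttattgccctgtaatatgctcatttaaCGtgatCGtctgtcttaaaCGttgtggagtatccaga
Tcf12 intron 5, chr9:71951576-71951735, low in B: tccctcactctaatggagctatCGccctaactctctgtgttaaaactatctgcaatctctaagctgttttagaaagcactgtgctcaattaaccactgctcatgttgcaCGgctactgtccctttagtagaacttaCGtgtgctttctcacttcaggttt

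**Figure D4:**
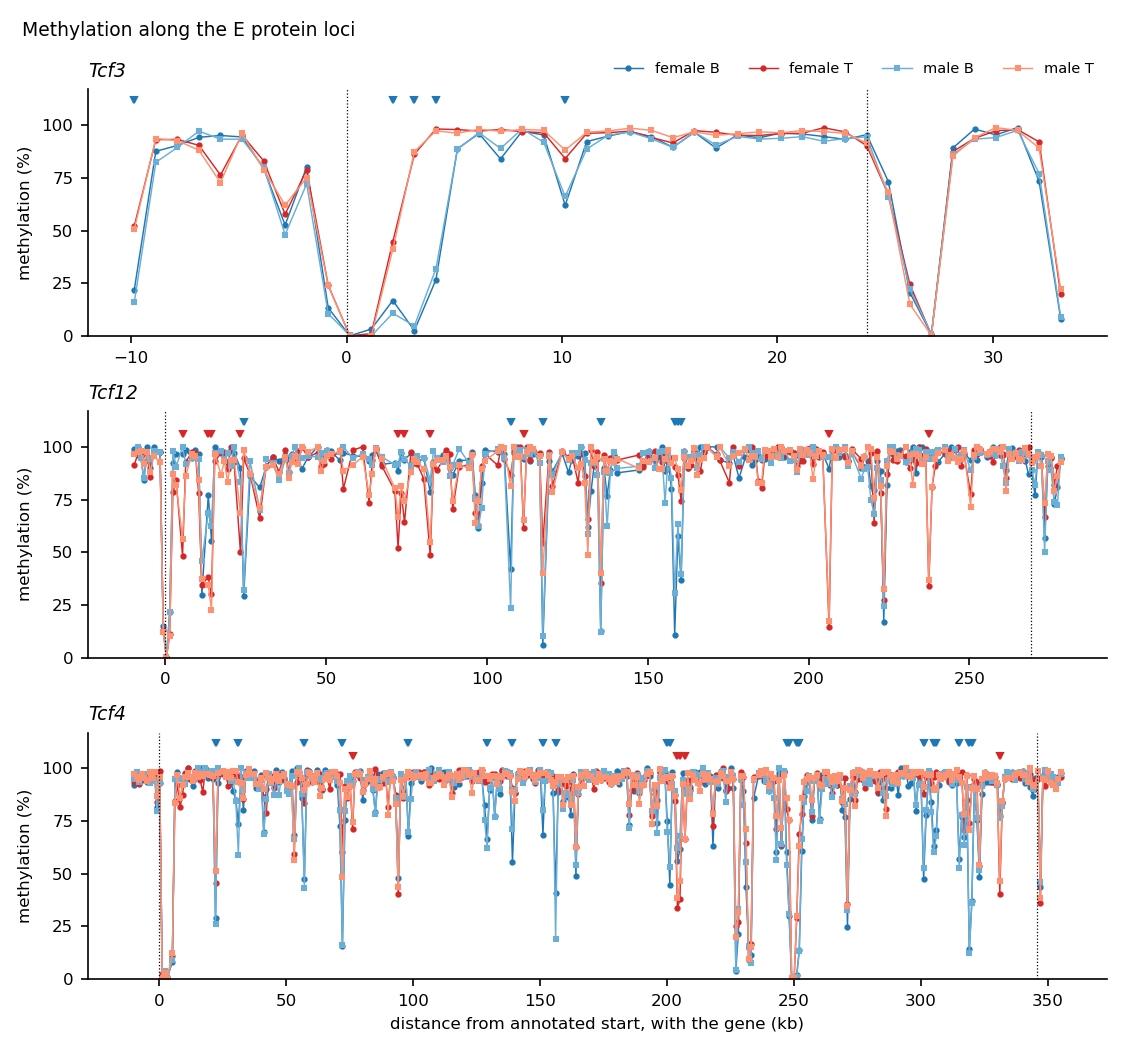
Methylation level (percent) of each tested 1 kb window along the Tcf3, Tcf12 and Tcf4 loci in the 4 files, by distance from the annotated start (kb, with transcription); dotted lines mark the gene's ends. Red triangles mark windows called higher in B and blue triangles windows called lower in B. The B files of Tcf3 stay low to about 4 kb past the start, and the longer genes are high except at narrow dips, some in 1 cell type and some in both.

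Tcf4 (ENSMUSG00000053477, chr18:69343356-69689079, plus strand, 345.7 kb) encodes E2-2, an E protein best known for its role in plasmacytoid dendritic cells and also used by B cells. Of its 26 called windows, 21 were lower in B, and all 26 were inside the gene. The 2 kb element at chr18:69662001-69664000 in intron 16 of transcript Tcf4-201 stood at 24.5% and 24.1% in the B files and at 82.3% and 80.9% in the T files. In the same intron, chr18:69658001-69659000 stood at 57.1% and 52.7% in B against 96.0% in both T files. In intron 12, chr18:69644001-69645000 stood at 47.5% and 52.9% in B against 87.8% and 91.0% in T.

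Intron 16 also held the Tcf4 window with the greatest difference in the other direction. At chr18:69674001-69675000 the B files stood at 77.6% and 76.6% and the T files at 40.4% and 46.5%. The 2 kb element at chr18:69547001-69549000 in intron 7 stood at 59.2% and 65.3% in B against 35.8% and 42.1% in T. The 4 Tcf4 elements that were higher in B differed by 20.6 to 33.7 points, and none of their leading windows kept its call in the limma fit. The window at chr18:69419001-69420000 also lost it without the female B file (19.9 points) and without the female T file (19.0 points). The one at chr18:69547001-69548000 lost it without the male B file, where its difference was 20.2 points, and with the dispersion prior taken from all windows.

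Tcf4 has many promoters, and it showed each kind of pattern among its 15 protein-coding transcript starts. At 5 starts the level was 20% or less in every file, at 5 it was 80% or more in every file, and 2 were called, both lower in B. At position 69499389, 156.0 kb into the gene, the level was 47.3% and 31.9% in the B files and 93.7% and 93.9% in the T files (adjusted p = 7.58e-06). At position 69415897, 72.5 kb into the gene, it was 31.4% and 38.4% in B against 75.1% and 63.1% in T (adjusted p = 0.00175). The B files were further apart at these starts than at most others, and so were the T files at the second.

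A promoter region in the middle of Tcf4 was unmethylated in both cell types but wider in B cells. The start at position 69592988 stood at 0.515%, 0.553%, 0% and 0.664%. Its low stretch, measured as at the gene starts, was 4.63 and 4.68 kb in the B files against 2.58 and 2.57 kb in the T files. The element at chr18:69594001-69596000 on its downstream edge stood at 7.45% and 6.08% in B against 50.7% and 44.2% in T. The low stretch was thus longer in both B files here, as it was at the Tcf3 start. Near the first Tcf4 start the lengths were closer. At position 69344489 the stretch was 4.74 kb and 5.14 kb in the B files and 5.19 kb in both T files. The male pair thus differed by less than the B files did from each other. This stretch reached past the start at position 69348523 in every file, although the 5 CpGs centred there were above 30% in the B files only. The 1 kb window holding that start stood at 8.09% and 9.09% in B against 11.1% and 12.6% in T.

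Over the 28 protein-coding transcript starts of the 7 genes, 3 were called (10.7%), beside 1.55% of all transcript starts tested. They were the second Tcf3 start and the 2 inner Tcf4 starts, and all were lower in B. Neighbouring starts share CpGs, so the 28 are not independent. The level was 20% or less in every file at 13 of the 28 and 80% or more in every file at 7. Tcf12 had a start 2.15 kb into the gene that stood at 63.8% and 55.5% in B against 42.1% and 47.5% in T, with an adjusted p of 0.119.

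**Figure D5:**
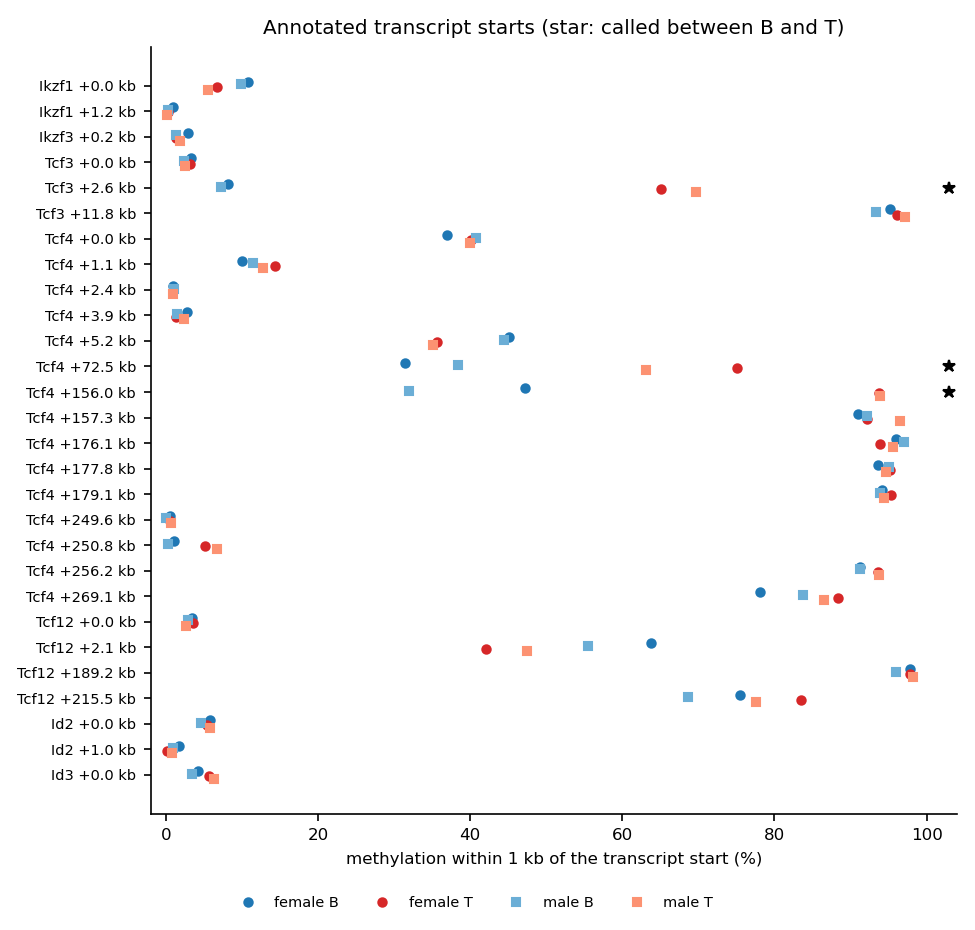
Methylation level (percent) within 1 kb of each of the 28 protein-coding transcript starts of the 7 genes in the 4 files, ordered by gene and by distance from the annotated gene start (kb). Stars mark the 3 starts called between B and T, at which the B files lie below the T files.

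The Id genes had 1 called window between them. Id2 (ENSMUSG00000020644, chr12:25093799-25097140, minus strand, 3.34 kb), which is known for its role in innate lymphoid and effector T cells, had 1 called window. At chr12:25093001-25094000, over the end of the gene, the B files stood at 71.2% and 71.4% (Wilson 95% intervals 64.7% to 76.9% and 64.5% to 77.4%) and the T files at 39.7% and 45.7% (33.9% to 45.8% and 39.8% to 51.7%). It was called in the quasi-binomial model and lost the call in the limma fit. Without the female B file 2 Id2 windows were called, and 4 with windows of 500 bp. Id3 (ENSMUSG00000007872, chr4:136143497-136145755, plus strand, 2.26 kb), which is induced by antigen receptor signals, had 0 of 23 windows called in the quasi-binomial model, with 0 called under limma. In the first of these models 6 windows had an unadjusted p under 0.05, beside 12.4% of all windows, and 4 an adjusted p under 0.05 with a difference below 20 points. The greatest of the 4 was at chr4:136142001-136143000, upstream of the start, with 50.2% and 46.5% in B against 60% and 68.7% in T (adjusted p = 2.38e-05). With a threshold of 10 points it was called, beside 4.19% of all windows, and with the female T file left out 1 was called at 20 points.

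Both Id genes had windows that were low in every file. Id2 had 4 windows away from its starts at 30% or less in all files, and the one at chr12:25100001-25101000, with 59 CpGs, stood at 1.23%, 0.384%, 1.13% and 1.27%. Id3 had 5, among them chr4:136147001-136148000, with 44 CpGs, at 8.33%, 3.10%, 5.87% and 4.35%. The locus as a whole stood at 27.7% to 30.4% for Id2 and 36.5% to 38.9% for Id3, while the other loci stood at 45.8% or more.

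The called windows of the 7 loci were placed by annotation. Introns held 90 of the 113 called windows and 620 of the 875 tested, coding exons 7 of 69 called, and windows with a transcript start 5 of 29. All 5 of those with a transcript start, 2 in Tcf3 and 3 in Tcf4, were lower in B, as were all 9 wholly in the flanks. A window that touched an exon was placed by the exon. The 2 called UTR windows, in Ikzf3 and Id2, lay mostly in the flanks and were higher in B. The introns were more evenly split, with 53 higher and 37 lower in B. Of the 67 elements 46 were a single window.

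Within the loci the size of the differences varied. In Ikzf1 the windows higher in B differed by 20.3 to 77.5 points with a median of 39.3, and in Tcf3 the windows lower in B by 22.1 to 83.2 points. In Ikzf3 the median was 36.8 points for windows higher in B and -38.95 for windows lower in B. In Tcf12 these medians were 31.9 and -38.9, and in Tcf4 22.3 and -30.9.

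In most called windows of the 7 loci the lower cell type was not under 20% in both files over the whole kilobase. Of the 61 windows that were lower in T, 13 had both T files under 20%, and of the 52 that were lower in B, 9 had both B files under 20%. The median size of the difference was 33.9 points in the first group and 38.02 in the second. Repeat-masked sequence made up a mean of 16.7% and 19.5% of these windows, beside 31.5% over all windows tested and 20.5% over the other windows of the 7 loci.

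Motifs were counted on both strands as a description. The RUNX motif TGTGGT was in 68.9% of the member windows lower in T and in 57.7% of those lower in B, beside 53.6% of all windows tested. The E-box CACCTG was in 49.2% and 36.5%, beside 48.0%. The E-box CATCTG was in 59.02% and 51.9%, beside 56.9%. The E-box CAGCTG was in 41.0% and 34.6%, beside 33.1%, and the Ikaros motif TGGGAA in 62.3% and 63.5%, beside 61.9%. ETS (GGAAGT) was in 47.5% and 46.2%, beside 45.8%, TCF/LEF (CTTTGA) in 60.7% and 46.2%, beside 54.99%, and the EBF motif in 1.64% and 3.85%, beside 1.86%. In all called windows of the genome that were lower in T, RUNX stood at 67.5%, and in those lower in B the EBF motif stood at 8.14%.

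Genes that work with these factors were read at their annotated starts from fixed lists. Over all gene starts 0.915% were called. Of 8 other family members (among them Ikzf2, Ikzf4, Id1 and Tal1) 0 was called, and of 19 partners (subunits of the Ikaros-associated deacetylase complex and coactivators among them) 0 was called. In the same quasi-binomial model 1 and 4 of them had an unadjusted p under 0.05. The partner Cbfa2t3 came close to a call, at 1.53% and 1.13% in B against 18.7% and 19.5% in T (-17.8 points, adjusted p = 0.000316, same model). Of 26 known targets 4 were called, and 13 had an unadjusted p under 0.05. Of those called, Cd4, Cd79a and Cd79b were also among the cell identity markers above. Cd4 was higher in B, at 73.3% and 70.2% against 20% and 14.9%. Cd79a and Cd79b, the signalling chains of the B cell receptor, and Igll1, of the surrogate light chain, were lower in B. Igll1 stood at 15.7% and 17.4% in B against 85% and 87.2% in T.

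Over whole loci the targets had a larger share of windows called than the other lists. They had 462 of 2145 (21.5%), the other family members 15 of 368 (4.08%) and the partners 47 of 1275 (3.69%), beside 2.08% of all windows and 2.78% of those near protein-coding genes. Each of the 25 target loci with 20 or more windows had at least 1 called, beside 53.9% of all such loci. The target loci with a higher share than Ikzf1 (42.6%) were Lef1 (58.6%), Cd79b (58.3%), Tcf7 (52.0%), Bcl11b (51.8%) and Ets1 (44.6%).

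Between the sexes no window of the 7 loci was called. At an unadjusted p under 0.05 there were 44 of 875 (5.03%) in the quasi-binomial model, and 46 in the limma fit, beside 4.73% of autosomal windows in the former, and 0.00103% of autosomal windows were called. The mean female minus male difference reached at most 14.8 points in a window. Whether the B minus T difference itself differed between the sexes could not be tested with 1 file a group.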

How the data were processed

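Whole-genome bisulfite sequencing files of 4 groups (female B, female T, male B, male T) were used, 1 file for the 2 samples of each group. The submitters' processing notes name Trim Galore, FastQC, Bismark 0.13.1 and the mm10 build, and duplicate removal and conversion rates are not given in the sources used here. For every CpG with 5 or more reads the authors deposited a fraction (the methylation level) beside a count (the reads covering it). The product of both, rounded, gave the methylated reads, and 100% of entries came out whole within a tolerance of 0.00101 in the fraction. All 18714703 CpGs present in the 4 files lay on a CG of GRCm38.

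Reads of each 1 kb window (3 or more CpGs), gene start or transcript start were fitted across the genome with terms for cell type and sex in a quasi-binomial model, leaving 1 residual degree of freedom. squeezeVar (limma 3.58.1, R 4.3.3) shrank the dispersion towards a prior from windows expecting 5 or more methylated and unmethylated reads, and p-values were adjusted by Benjamini-Hochberg. For windows the prior took over entirely (dispersion 1.31), so a window's p rests on an average over windows and not on its own spread. The spread is what cell type and sex left unexplained, that is, how far the B minus T difference varied between the sexes. Calls needed an adjusted p under 0.05 and 20 points. An exact permutation of 2 against 2 files cannot reach 0.05. Scripts ran in Python 3.11.15 and were tested on simulated data. Intervals and limits cover counting error only, and PCR duplicates are not known to be absent. The p-values do not measure the spread between files of 1 kind, since no group had a second file, and the spread they use may be technical.

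The members and lists were chosen with earlier results of these data known. Named were all 7 genes, their transcript starts, up to 5 elements in each direction per gene ranked by whichever sex had the smaller difference, up to 3 shared low windows per gene, and listed genes where called. Some listed genes that were not called, such as Lyz2 and Cbfa2t3, were also named. The span of Ikzf1 and the lengths of low stretches were chosen after their values were seen. Introns were numbered in the transcript with the longest coding sequence. No protein sequence was used.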

Additional observations from a re-analysis of the deposited data

Results flagged for a closer look

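For some values the B minus T difference had opposite signs in females and in males. With 1 file a group the difference between the sexes was not tested, and each value below is the male difference minus the female one, in points. At annotated starts it was -2.19 for Ikzf3, -0.27 for Tcf3, 3.85 for Tcf4, 0.482 for Tcf12 and -1.45 for Id2. Over the whole Id2 locus it was -2.48. At inner transcript starts it was -2.12 for Ikzf3 at position 98545800, which shares nearly all its CpGs with the first start, and -2.35 and 1.88 for Tcf4 at positions 69347299 and 69521160. None of these starts was called between B and T in the quasi-binomial model.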

How the results depend on the processing

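The 113 windows called in the 7 loci and the 41929 called in the genome became 186 and 84621 at a threshold of 10 points, 73 and 21016 at 30 points, 68 and 20613 under limma on log2 ratios, 178 and 73162 in 500 bp windows, and 57 and 16857 in 2 kb windows, where other numbers of windows were tested. With a file left out they ranged from 109 to 114 and from 40790 to 42020. The sex comparison gave 0 windows in the 7 loci under every alternative run. The starts of the 7 genes gave 0 calls, with 0 when any file was left out, and 1 (Ikzf1) from 250 bases before to 50 after, where Tcf4 had too few CpGs to be tested. The 193 gene starts of the genome became 424 at 10 points and 34 to 53 with a file left out, where sex was no longer a term. The 42 leading windows of the named elements could change direction only where CpGs needed 10 reads, and 0 of those tested there did. The other settings kept the same difference, or left out 1 file from windows whose B and T files did not overlap. Over 9 settings 343 comparisons kept the call and 28 lost it, 12 of them under limma, and 7 of the windows could not be tested where CpGs needed 10 reads (those of Ikzf1 at 11741001 and 11777001, of Ikzf3 at 98487001 and of Tcf12 at 71953001, 71994001, 72004001 and 72029001). The causes were not tested. No paired analysis was possible because the groups share no replicate numbers. Depth limits the narrow windows, since a called window had as few as 24 reads in a file, and no group had a second file, so the spread between pools of 1 kind is unknown. For the low stretch, limits of 20% and 40% were added after the data were seen. They were run at both Ikzf1 starts, the first Tcf3 start and the Tcf4 start where B most exceeded T. The order of the cell type means did not change at these.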
